A study of Mus musculus with 4 samples.

Results

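The sirtuins Sirt1 to Sirt7 were examined in growing mouse oocytes 1 day after γ-irradiation. All 7 genes were present among the 17374 genes of the expression table, where they were selected by their NCBI gene identifiers, and together they accounted for 31 of its 45505 transcripts. Germinal vesicle stage oocytes, which are arrested in prophase of the first meiotic division, were obtained at postnatal day 16 from ovaries of non-primed female mice of a C57/Bl6/DBA2J F1 hybrid background. The study's methods describe them as transcriptionally active oocytes with the non-surrounded nucleolus configuration. The comparison was made by RNA-seq of poly(A) RNA between non-irradiated control oocytes (2 libraries) and oocytes that received 5 Gy from a Cesium-137 source (2 libraries). No engineered allele is named for either group, and the oocytes of both were freed of cumulus cells and were kept with milrinone, which holds meiotic arrest. Each library was a pool of oocytes, and the labels do not tie pools to animals. The p-values below concern only the spread between such pools, 2 per group, estimated with information shared over all genes or transcripts tested. In RNA from pools, fewer contributing cells and less RNA per cell cannot be told apart.

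Sirtuins remove acetyl and other acyl groups from lysine residues and consume NAD+ in each round of catalysis, so their activity follows the supply of that cofactor. SIRT1, SIRT6 and SIRT7 are mainly nuclear enzymes that act on histones, transcription factors and DNA repair proteins, SIRT2 is mainly cytosolic and deacetylates α-tubulin, and SIRT3, SIRT4 and SIRT5 reside in mitochondria. In oocytes the family is known for roles in chromatin, spindle assembly and the control of reactive oxygen species.

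Libraries held between 33349466 and 37232818 estimated counts. Irradiated library 2 stood apart from the other libraries. It held 14150 genes with more than 3 counts against 13677 to 13733 in the others, and its TMM scaling factor was 1.19 against 0.923 to 0.975. It was the highest library for 38.2% of the 12569 genes tested and the lowest for 35.4%. The fold changes of the sirtuin gene totals and the medians of gene lists are therefore also given without it. Of the 15 oocyte markers, 14 were listed, and their summed level in TPM (an abundance scaled for transcript length and library depth) was 35485 and 36977 in control and 38262 and 34289 in irradiated oocytes, although irradiated library 2 was lower than the rest for Zp2 (1937 TPM against 4115 to 4452 TPM) and higher for Nobox (1215 TPM against 398 to 468 TPM). Granulosa and cumulus cell markers summed to 21.4 and 24.2 TPM in control and 21.3 and 32.4 TPM in irradiated libraries, with 10 of 15 listed, among them Cyp19a1 at 8.79 to 10.2 TPM and Inhbb at 0 to 0.01 TPM, while Amh, Foxl2, Fst, Wt1 and Amhr2 were not in the table. Theca, endothelial and blood cell markers summed to 5.72 and 6.80 TPM in control and 6.07 and 9.52 TPM in irradiated libraries, with 5 of 13 listed. The part of these differences in the sirtuin values was not tested.

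Several sirtuin transcripts differ by an exon or by their start, and the sequences below mark those differences. The coding exons of Sirt1 and Sirt2 are shown because the counts of these genes were split between a transcript that has the exon and one that lacks it. The Sirt1 exon lies on the minus strand at chr10:63336980-63337096 (GRCm38), holds 117 bases or 39 codons, and is present in the model of 737 codons that GENCODE pairs with NM_019812 and absent from the model of 698 codons paired with NM_001159589. The Sirt2 exon lies on the plus strand at chr7:28767632-28767678, holds 47 bases, and is present in the model of 389 codons (NM_022432) and absent from the model of 352 codons (NM_001122765), which starts translation further downstream. Capitals mark the exon and lower case the 15 bases on each side in the GENCODE transcript.
Sirt1 exon: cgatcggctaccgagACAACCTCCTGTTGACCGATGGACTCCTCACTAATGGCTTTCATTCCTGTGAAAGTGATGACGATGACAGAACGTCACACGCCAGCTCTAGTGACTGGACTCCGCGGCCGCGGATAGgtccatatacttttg
Sirt2 exon: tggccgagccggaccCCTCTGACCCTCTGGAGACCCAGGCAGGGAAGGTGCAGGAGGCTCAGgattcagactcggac

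For Sirt3 the listed transcripts differ by their first exon. NM_022433 is paired with a model that starts at position 140882309 of chromosome 7 on the minus strand, and NM_001127351 and NM_001177804 are both paired with a model that starts further downstream, at 140881869. The stretch before the downstream start is shown because 1 of these 2 transcripts, NM_001127351, carried counts only in irradiated libraries. The other, NM_001177804, held 92.5 counts in control library 2, so counts were given to this start in a control library too. The stretch covers chr7:140881870-140881967 (98 bases, RefSeq GRCm38.p6, minus strand), and capitals mark the GC box, the letters GGGCGG on either strand.
Sirt3 downstream start: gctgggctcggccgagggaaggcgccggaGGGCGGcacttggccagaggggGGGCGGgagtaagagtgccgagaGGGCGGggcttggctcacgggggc
The 3 GC boxes in it are all of those in the 250 bases before that start, and 32.7% of 32851 RefSeq windows of that length hold at least 1. The 250 bases before the upstream Sirt3 start hold 0 GC boxes and 2 copies of the ETS core CGGAAG, which 13.6% of windows hold. These matches are descriptions of the letters and not of bound sites.

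Among the sirtuins, Sirt6 and Sirt7 had the highest transcript levels and, with predicted transcripts counted, Sirt1, Sirt2 and Sirt3 the lowest. SIRT6 deacetylates histone H3 and takes part in telomere maintenance and double-strand break repair, and Sirt6 was listed at 24.3 and 31.95 TPM in control libraries and 33.9 and 64.5 TPM in irradiated libraries. SIRT7 is enriched in the nucleolus, where it promotes ribosomal RNA synthesis, and Sirt7 was at 27.1 and 26.8 TPM in control and 31.7 and 48.4 TPM in irradiated oocytes. Together they made up 56.5% and 62.6% of the summed sirtuin level in control libraries, and 61.9% and 68.0% in irradiated libraries. In every library they exceeded the other members, and irradiated library 2 was the highest for both.

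Of the mitochondrial sirtuins, with predicted transcripts counted, Sirt4 and Sirt5 took the middle of the range and Sirt3 lay near its lower end. Sirt4, whose product acts as a lipoamidase and ADP-ribosyltransferase on metabolic enzymes, was at 16.0 and 12.7 TPM in control and 16.8 and 19.1 TPM in irradiated libraries. Sirt5, which encodes the desuccinylase and demalonylase of the family, was at 10.1 and 8.74 TPM and at 9.85 and 10.5 TPM. Sirt3, the main mitochondrial deacetylase gene, was at 4.26 and 4.63 TPM in control and 4.15 and 9.31 TPM in irradiated libraries, so that only irradiated library 2 stood above the rest. The mitochondrial members together fell between 23.5% and 33.3% of the summed sirtuin level, with the lowest share in irradiated library 2.

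Sirt2, the tubulin deacetylase gene, was at 4.26 and 4.11 TPM in control and 5.00 and 8.07 TPM in irradiated libraries. Sirt1, whose product deacetylates p53 and other transcription factors, was at 5.03 and 5.01 TPM in control and 4.54 and 5.97 TPM in irradiated oocytes. By mean over the 4 libraries the order was Sirt6 (38.7 TPM), Sirt7 (33.5 TPM), Sirt4 (16.2 TPM), Sirt5 (9.81 TPM), Sirt3 (5.59 TPM), Sirt2 (5.36 TPM) and Sirt1 (5.14 TPM). The ranges over libraries did not overlap between Sirt7 and Sirt4 or between Sirt4 and Sirt5, and they overlapped between every other pair of neighbours in this order. Sirt6 exceeded Sirt7 in 3 of 4 libraries, and Sirt3 exceeded Sirt2, and Sirt2 exceeded Sirt1, in 2 of 4 each. Without irradiated library 2 the last 3 ran Sirt1 (4.86 TPM), Sirt2 (4.46 TPM), Sirt3 (4.35 TPM). When predicted transcripts, 17 of the 31, were left out, Sirt5 dropped to the last place at 4.72 TPM and Sirt7 (33.5 TPM) passed Sirt6 (27.0 TPM). Sirt4 fell from 16.2 to 6.63 TPM in that setting, still above Sirt3 at 5.415 TPM. The middle place of Sirt4 and Sirt5 thus rested on predicted transcripts.

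**Figure D1:**
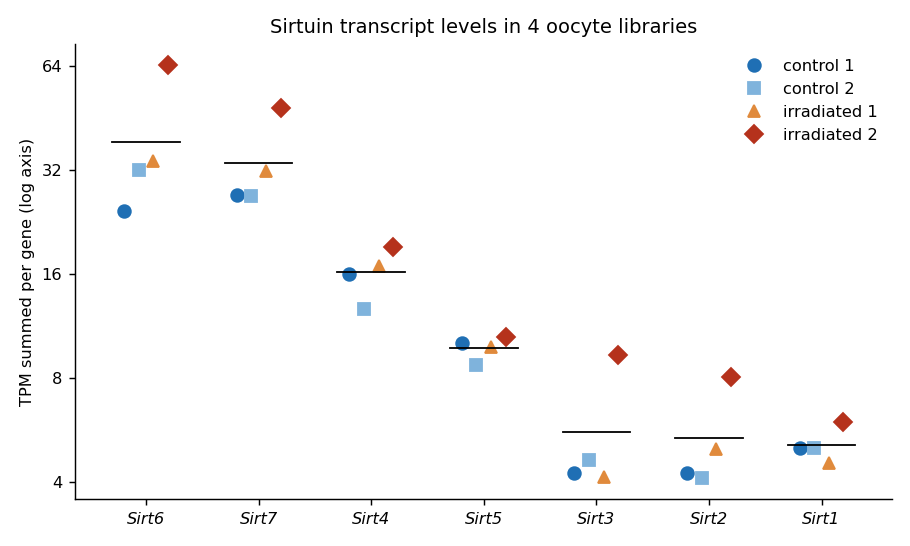
Level of each sirtuin gene in TPM on a log axis, with 1 point per library (blue, control; orange and red, irradiated) and a bar at the mean of the 4 libraries. Sirt6 and Sirt7 lie above 24 TPM in every library, and the red diamond of irradiated library 2 is the highest point for each gene. TPM takes no account of the TMM factor, and in normalized counts that library was the highest only for Sirt2, Sirt3, Sirt6 and Sirt7.

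To determine whether irradiation changed the sirtuins, gene totals were compared by the quasi-likelihood test of edgeR, and p-values were adjusted over 12569 genes by the Benjamini-Hochberg method. All 7 members passed the filter on low counts. None of the 7 was called at an adjusted p under 0.05 with a log2 fold change above 2 in size, where 0.00796% of all genes tested were called, and 1 of 7, Sirt6, had an unadjusted p under 0.05, where 5.92% of all genes did. In counts normalized for library size with TMM, both irradiated libraries lay above both control libraries for 3 members (Sirt2, Sirt6 and Sirt7; 22.1% of all genes) and below them for 1 member (Sirt1; 19.9% of all genes). The median log2 fold change of the 7 members was 0.30, against 0.01 over all genes tested, and leaving out irradiated library 2 brought it to 0.18, against 0.0026 over all genes.

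Among the nuclear sirtuins, Sirt6 held 999 and 1227 normalized counts in control oocytes and 1339 and 1926 in irradiated libraries. The groups did not overlap, but the irradiated libraries differed from each other by more than irradiated library 1 did from either control. Its log2 fold change of irradiated over control was 0.55 (SE 0.205, 95% interval 0.067 to 1.04, n = 2 per group, edgeR's unadjusted p = 0.0311, adjusted p = 0.708). The estimate fell to 0.27 when irradiated library 2 was left out and came to 0.78 when irradiated library 1 was. In the latter fit the log2 fold change was 0.41 for Sirt7, 0.61 for Sirt3 and 0.51 for Sirt2. It was -0.19 for Sirt1, -0.071 for Sirt4 and -0.33 for Sirt5. For the irradiated group these values rest on irradiated library 2 alone, whose spread cannot be measured there, and all changes stayed under the fold limit. Over the 4 leave-one-out fits the log2 fold change of Sirt6 ran from 0.27 to 0.78.

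Sirt7 held 1176 and 1098 normalized counts in control oocytes and 1316 and 1521 in irradiated libraries. These groups did not overlap either, with a log2 fold change of 0.32 (SE 0.140, 95% interval -0.012 to 0.65, edgeR's adjusted p = 0.708), or 0.21 without irradiated library 2. Over all its GENCODE models, Sirt7 shares 124 exonic bases with Mafg, which lies on the same strand. The counted transcripts are those of RefSeq, where the span of Sirt7 (GRCm38.p6) ends at chr11:120625014 and does not overlap Mafg. Mafg had 196, 156, 188 and 229 unscaled counts in control 1, control 2, irradiated 1 and irradiated 2, a log2 fold change of 0.10 (SE 0.178, edgeR's adjusted p = 0.858). Sirt1 held 523 and 484 normalized counts in control oocytes and 447 and 445 in irradiated libraries. It was the member whose irradiated libraries both lay below the control libraries, by a log2 fold change of -0.18 (SE 0.134, 95% interval -0.49 to 0.14, edgeR's adjusted p = 0.730), or -0.17 without irradiated library 2. On the log2(TPM + 1) scale the Sirt1 difference was 0.046, of opposite sign.

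The cytosolic member Sirt2 held 197 and 179 normalized counts in control oocytes and 222 and 270 in irradiated libraries. Both irradiated values were higher, with a log2 fold change of 0.39 (SE 0.181, 95% interval -0.039 to 0.82, edgeR's adjusted p = 0.708), or 0.24 without irradiated library 2. Over all its GENCODE models, Sirt2 shares 42 exonic bases with Nfkbib on the opposite strand, whereas their RefSeq spans (GRCm38.p6) do not overlap. The unscaled counts of Nfkbib were 831, 847, 912 and 1649 in control 1, control 2, irradiated 1 and irradiated 2. Nfkbib had a log2 fold change of 0.43 (SE 0.195, edgeR's adjusted p = 0.708), or 0.13 without irradiated library 2. Nothing in the sources used here says whether the counting used strand.

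Of the mitochondrial members, Sirt3 held 152 and 153 normalized counts in control oocytes and 138 and 235 in irradiated libraries. The irradiated values lay on either side of the control values, and the log2 fold change of 0.30 (SE 0.268, 95% interval -0.33 to 0.94, edgeR's adjusted p = 0.742) became -0.14 without irradiated library 2. Sirt3 shares 342 exonic bases with Psmd13, a proteasome subunit gene, and 418 with Ric8a, both on the opposite strand. Their log2 fold changes were 0.10 (SE 0.135, edgeR's adjusted p = 0.810) and 0.20 (SE 0.322, adjusted p = 0.841), or 0.10 and 0.24 when irradiated library 2 was left out.

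Sirt4 held 655 and 517 normalized counts in control oocytes and 665 and 563 in irradiated libraries, and Sirt5 held 433 and 346 in control and 401 and 313 in irradiated libraries. Within each group the libraries of these genes differed by more than the group means did. The log2 fold change was 0.066 for Sirt4 (SE 0.169, 95% interval -0.33 to 0.47, edgeR's adjusted p = 0.899) and -0.13 for Sirt5 (SE 0.189, 95% interval -0.58 to 0.32, adjusted p = 0.831). Without irradiated library 2 they were 0.18 and 0.042, so that the sign for Sirt5 turned. The intervals of all 7 members excluded a log2 change of 2 in either direction.

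**Figure D2:**
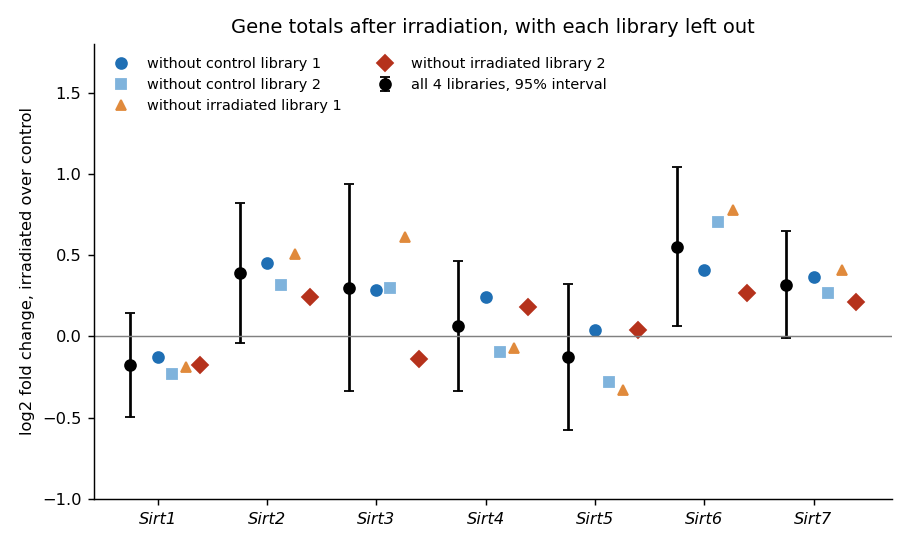
Log2 fold change of each sirtuin gene total, irradiated over control, with its 95% interval (black, all 4 libraries) and the estimate after leaving out each library in turn (coloured symbols). Only the interval of Sirt6 lies above 0 (0.067 to 1.04), and leaving out irradiated library 2 takes Sirt3 from 0.30 to -0.14.

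Next, transcripts were tested, of which 27 of the 31 sirtuin transcripts passed the filter. None was called by edgeR's quasi-likelihood test, as was the case for 0% of 26645 transcripts tested, and 1 of 27 had an unadjusted p under 0.05, where 4.9% of all transcripts did. Estimated counts of transcripts had been divided among isoforms by the authors' processing, so they carry the error of that division as well as counting error.

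The transcript with the unadjusted p under 0.05 was NM_001127351.1 of Sirt3, which starts at the downstream site shown above. Its estimated counts were 0 and 0 in control libraries and 67.9 and 80.2 in irradiated libraries. Against a floor of 3 counts in each control library this is at least 22.6-fold higher (edgeR's unadjusted p = 0.00278, adjusted p = 0.777). DESeq2 gave an adjusted p of 0.00228 and edgeR's exact test 0.00104, and over all alternatives, left-out libraries included, the adjusted p ran from that value to 1.00. NM_001177804.1 is paired with the same model, and what tells the pair apart was not given in the sources used here. Summed, which was done after the values were seen, these downstream forms held 0 and 92.5 counts in control oocytes and 92.7 and 190 in irradiated oocytes. Control library 2 and irradiated library 1 were thus nearly equal, and the sum had a log2 fold change of 1.42 (SE 2.02, 95% interval -4.34 to 7.18, edgeR's adjusted p = 1.00). For control library 2, absence of NM_001127351.1 and a different division of counts between these forms cannot be told apart. The pattern of a single transcript with more than 3 counts in both irradiated and at most 3 in both control libraries was found for 1 of the 31 sirtuin transcripts and for 2.21% of all 45505 transcripts.

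The remaining Sirt3 transcripts varied between libraries of the same group. NM_001177804.1, was at 0 and 92.5 counts in control oocytes and 24.8 and 110 in irradiated libraries. NM_022433.2, from the upstream start, was at 141 and 48.5 counts in control oocytes and 32.7 and 75.1 in irradiated libraries, a share of 95.4% and 34.4% of the gene's counts in control oocytes and 25.2% and 27.5% in irradiated libraries. The control libraries thus differed from each other in the division of Sirt3 counts, with NM_001177804.1 holding 0% in the first and 65.6% in the second. Transcript usage of Sirt3 was tested with edgeR's diffSpliceDGE and the method of Simes (unadjusted p = 0.0697, adjusted p = 1.00). Usage was called for none of the 7 sirtuins, where it was called for 0.253% of 6323 genes with several tested transcripts.

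Sirt6 counts came mainly from NM_181586.3, paired with the model of 334 codons, at 621 and 677 counts in control oocytes and 856 and 1739 in irradiated libraries. The log2 fold change of NM_181586.3 was 0.83 (SE 0.302, 95% interval -0.028 to 1.70, edgeR's adjusted p = 1.00), or 0.41 without irradiated library 2. The predicted transcript XM_006513861.4 was at 317 and 426 counts in control oocytes and 354 and 254 in irradiated libraries, and XM_006513863.4 at 0 and 21.5 against 5.94 and 187. Irradiated library 2 thus held the most counts of NM_181586.3 and XM_006513863.4 and the fewest of XM_006513861.4. NM_001163430.1, with a separate first exon and 294 codons, stayed between 0.671% and 3.82% of Sirt6 counts.

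Sirt7 was almost wholly NM_153056.3, at 96.2% to 97.0% of its counts in the 4 libraries, or 1111 and 974 counts in control oocytes and 1200 and 1704 in irradiated oocytes. Its other transcript, NM_001363439.1, was at 36.2 to 61.9 counts. The Sirt1 transcript with the exon printed above, NM_019812.3, was at 412 and 223 counts in control oocytes and 223 and 328 in irradiated libraries, or 80.8% and 49.8% of the gene's counts in the control libraries. The shares in both irradiated libraries lay between these values.

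The Sirt2 transcript without its exon, NM_001122765.1, was at 117 and 105 counts in control oocytes and 82.6 and 206 in irradiated libraries, and NM_022432.4, which has it, at 75.3 and 59.9 against 126 and 107. The longer form had a log2 fold change of 0.69 (SE 0.339, 95% interval -0.28 to 1.65, edgeR's adjusted p = 1.00), or 0.92 when irradiated library 2 was left out. For the shorter form irradiated library 1 was the lowest and irradiated library 2 the highest of the 4.

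Counts of Sirt4 and Sirt5 were spread over many predicted forms. Sirt4 had 8 transcripts, 6 of them predicted, and the largest, XM_006530481.3, was at 345 and 115 counts in control oocytes and 297 and 278 in irradiated libraries, followed by NM_133760.1 at 222 and 159 against 189 and 289. XM_030254867.1 went from 0 counts in irradiated library 1 to 122 in control library 2, and NM_001167691.1, XM_006530480.3 and XM_030254866.1 had means of 12.2, 45.8 and 17.2 counts. Sirt5 had 9 transcripts, 8 of them predicted, and NM_178848.3 held 32.8% and 36.2% of its counts in control oocytes and 36.2% and 46.6% in irradiated libraries. The 7 predicted Sirt5 transcripts tested had log2 fold changes between -1.39 and 0.54, with XM_006516954.1 at the low end (35.5 and 21.3 counts against 13.4 and 9.65) and XM_006516952.4 at the high end (11.1 and 39.4 against 54.3 and 23.4). The others were XM_030247390.1, XM_006516951.2, XM_011244413.2, XM_011244412.2 and XM_006516953.2, with means of 55.0, 44.0, 38.8, 20.99 and 18.01 counts. When irradiated library 2 was left out, the 7 values lay between -1.10 and 1.10. The adjusted p was 1.00 for each Sirt4 and Sirt5 transcript tested.

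**Figure D3:**
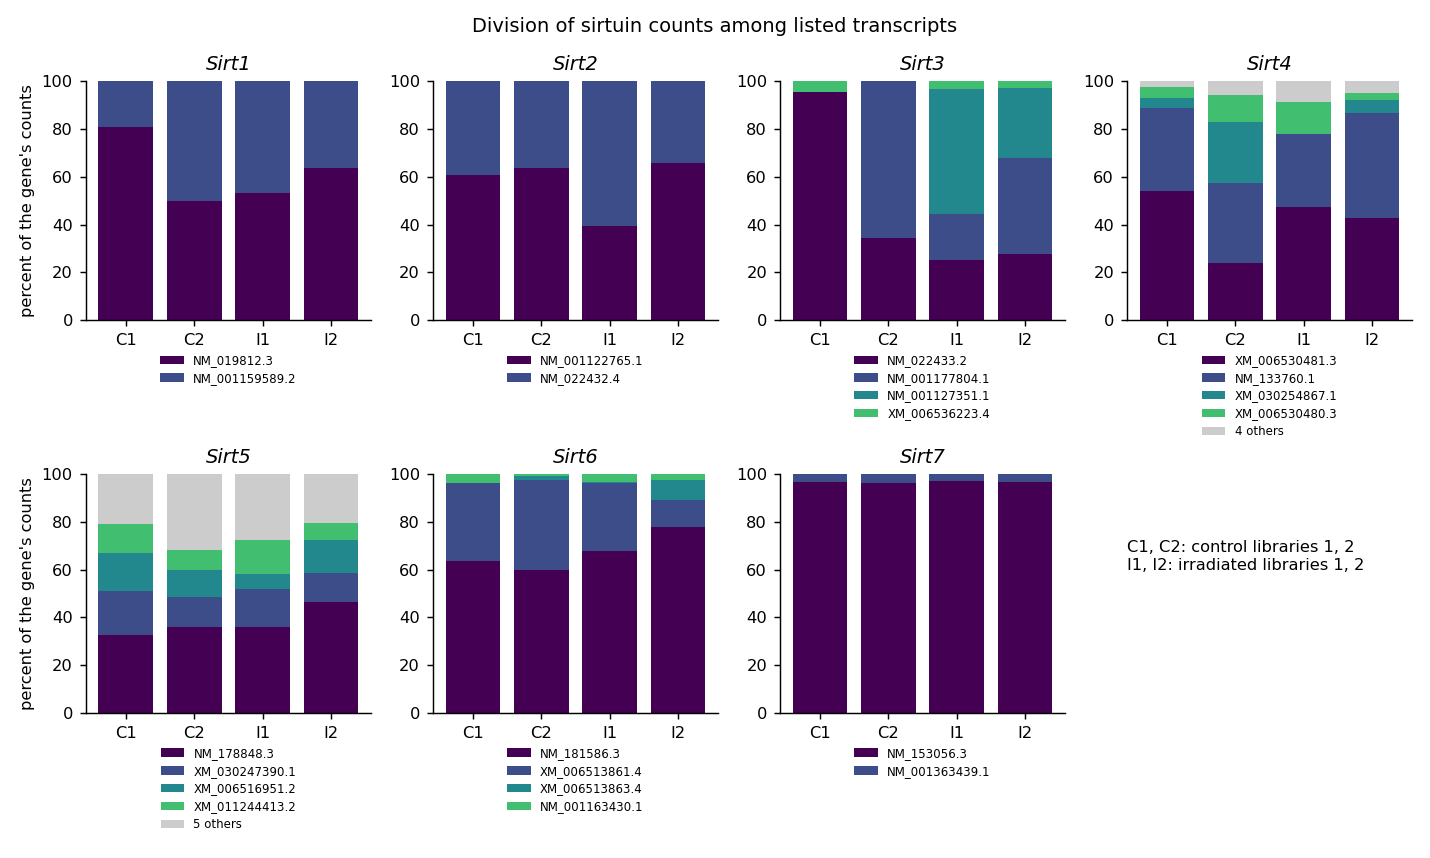
Percent of each sirtuin gene's estimated counts given to its listed transcripts in control (C1, C2) and irradiated (I1, I2) libraries, with the 4 most abundant transcripts in colour and any others in grey. Sirt7 is divided alike in all libraries (96.2% to 97.0% for NM_153056.3), whereas the shares of Sirt3 differ between the control libraries (95.4% and 34.4% for NM_022433.2).

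Genes of NAD+ supply and related steps, and of enzymes that compete for it, were examined alongside the sirtuins, in lists written from general knowledge. The shares to hold their counts against are those over all genes, of which 0.00796% were called, 5.92% had an unadjusted p under 0.05 and 48.6% had a log2 fold change below 0. Of 22 genes of NAD+ synthesis and salvage, 16 were tested and none was called; 1 had a higher and none a lower value at an unadjusted p under 0.05, or 1 of 16 against 5.92% of all genes. The median log2 fold change was 0.13, or 0.078 when irradiated library 2 was left out. The gene at an unadjusted p under 0.05 was Nadk, the cytosolic NAD+ kinase, which phosphorylates NAD+ and does not make it. Nadk was at 6.01 and 6.97 TPM in control and 8.02 and 13.1 TPM in irradiated libraries. Its log2 fold change was 0.44 (SE 0.153, edgeR's adjusted p = 0.708), or 0.29 when irradiated library 2 was left out. Slc25a51, which carries NAD+ into mitochondria, had a log2 fold change of 0.22 (SE 0.134, adjusted p = 0.709 by edgeR) and Afmid, an enzyme of the route from tryptophan, 0.41 (SE 0.259, adjusted p = 0.714 by edgeR), the latter at 0.028 when irradiated library 2 was left out. The most abundant member was the nicotinamide riboside kinase gene Nmrk1, at 149 and 128 TPM in control and 151 and 130 TPM in irradiated libraries. Nmrk1 was thus far above any sirtuin in level, and its log2 fold change was -0.18 (SE 0.239), or 0.10 when that library was left out.

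Of 11 other NAD+ consumers and nicotinamide-clearing enzymes, 5 were tested, with none called, none at an unadjusted p under 0.05 and a median of -0.27, which moved to -0.0096 when irradiated library 2 was left out. The DNA damage-activated ADP-ribosyltransferase gene Parp1 was at 4.06 and 3.97 TPM in control and 4.45 and 3.03 TPM in irradiated libraries (log2 fold change -0.28, SE 0.293), and Parp2, the most abundant, was at 27.4 and 25.9 TPM against 25.6 and 45.4 TPM (log2 fold change 0.15, SE 0.175). Tnks and Parp4, of the same enzyme family, had log2 fold changes of -0.36 (SE 0.290) and -0.27 (SE 0.232). Parp1 and Parp2 turned in sign, to 0.13 and -0.079, when irradiated library 2 was left out, and Tnks and Parp4 moved to -0.0096 and -0.060. Of 11 zinc-dependent histone deacetylases, which need no NAD+, 8 were tested, and again none was called or had an unadjusted p under 0.05 (median 0.093, or -0.076 when irradiated library 2 was left out). Hdac2 led them in level at 29.5 and 27.9 TPM in control and 28.9 and 34.2 TPM in irradiated libraries (log2 fold change -0.091, SE 0.140), and Hdac9, Hdac1 and Hdac11 had log2 fold changes of -0.30, 0.12 and 0.31 (SE 0.286, 0.152 and 0.434), of which Hdac11 turned to -0.41 when that library was left out.

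Of 7 regulators that bind or modify sirtuins, 6 were tested, and none was called or had an unadjusted p under 0.05 (median -0.12, or 0.031 when irradiated library 2 was left out). Rps19bp1, which encodes a SIRT1 activator, was at 266 and 295 TPM in control and 268 and 279 TPM in irradiated libraries (log2 fold change -0.24, SE 0.170). Senp1, a SUMO protease gene, and E2f1, a transcription factor gene, had log2 fold changes of -0.24 (SE 0.133) and 0.32 (SE 0.193), and E2f1 reached 0.50 when that library was left out.

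Among the genes of sirtuin substrates in nucleus and cytosol, 20 of 22 were tested and none was called. At an unadjusted p under 0.05, 1 was higher and 2 were lower, or 3 of 20 against 5.92% of all genes. The median was -0.095, with 16 of 20 below 0 against 48.6% of all genes, and when irradiated library 2 was left out it was 0.0023, with 10 of 20 below 0. The helicase gene Wrn was at 927 ± 2.12 normalized counts in control oocytes and 683 ± 16.9 in irradiated oocytes (SD, n = 2), a log2 fold change of -0.44 (SE 0.125, edgeR's unadjusted p = 0.00989, adjusted p = 0.708). The acetyltransferase gene Ep300 had a log2 fold change of -0.54 (SE 0.227) and Rela, the NF-κB subunit gene, 0.48 (SE 0.182), each with an adjusted p of 0.708 by edgeR. When irradiated library 2 was left out, Wrn was at -0.47, Ep300 at -0.31 and Rela at 0.24. G6pdx, of the pentose phosphate pathway, was the most abundant at 128 to 193 TPM (log2 fold change 0.10, SE 0.162).

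Of 24 genes of mitochondrial sirtuin substrates, 19 were tested, and none was called or had an unadjusted p under 0.05 (median -0.039, or 0.042 when irradiated library 2 was left out). Atp5o, an ATP synthase subunit gene, was the most abundant at 705 to 925 TPM (log2 fold change -0.19, SE 0.172). The smallest p-values in that list belonged to the pyruvate dehydrogenase kinase gene Pdk1 (log2 fold change 0.43, SE 0.210), the cyclophilin gene Ppif (0.38, SE 0.189) and the fatty acid oxidation gene Acadm (-0.22, SE 0.126), and when that library was left out they were 0.50, 0.15 and -0.21.

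**Figure D4:**
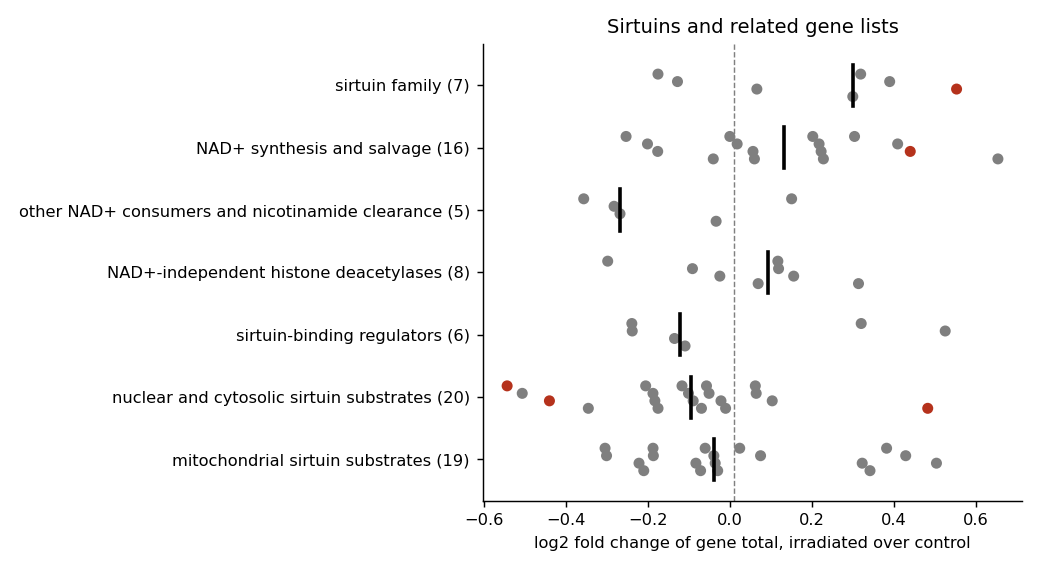
Log2 fold change of every tested gene in the sirtuin family and the related lists, with the number tested in brackets; red points have an unadjusted p under 0.05, black bars are list medians and the dashed line is the median of all genes (0.01). The sirtuin median lies at 0.30 (0.18 without irradiated library 2, not drawn), and no point passes a log2 change of 2.

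The genes whose levels were most like those of Sirt6, the most abundant sirtuin, were found by the Euclidean distance of log2(TPM + 1) over the 4 libraries. They were Ap1m1 (distance 0.179; 27.7, 32.04, 33.9 and 65.2 TPM in control 1, control 2, irradiated 1 and irradiated 2), Snai3 (distance 0.190) and Klhdc3 (distance 0.221). All 3 were highest in irradiated library 2, at 59.2 TPM for Snai3 and 74.2 TPM for Klhdc3. Sirt6 was also highest there, so their choice by likeness to it over these libraries set this pattern in advance.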

How the data were processed

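Poly(A) RNA of 4 pooled oocyte libraries was analysed. Paired-end reads were trimmed and aligned with Bowtie2 (GRCm38) by the authors, who deposited an estimated count and a TPM value for each RefSeq transcript; the submitters' processing notes name HISAT2, Bowtie2, RSEM and mm10 without saying which made which values. The 4 FPKM columns and 6 columns of averages were not used. The sirtuins, gene lists and tests were chosen with earlier results of these data known. Named were all members, their transcripts with a mean of at least 10 counts or present in 1 condition only, the 3 smallest p-values and the highest level of each list, and the 3 genes most like the highest sirtuin. Genes next to the sirtuins and markers were named after their values were seen.

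Estimated counts were summed per gene for tests and TPM for levels; 17323 of 17374 gene identifiers matched RefSeq GRCm38.p6. Counts were rounded. The tests used the quasi-likelihood functions of edgeR 4.0.16 (R 4.3.3) with TMM factors, filterByExpr at a minimum count of 10 and no block. Alternatives used DESeq2 1.42.0 and limma 3.58.1. Exons came from GENCODE M21 (GRCm38). On simulated data with a log2 change of 3 in 200 features, 100% of 200 genes (of 12569) and 75.5% of 200 transcripts (of 26645) were recovered, with 0 and 4 false calls. The changed features were drawn from those above the median level, and libraries of a group shared the same means. Recovery of low-level features, of changes under the fold limit or beside a library like irradiated library 2 was not tested. Figures used matplotlib 3.10.9.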

Additional observations from a re-analysis of the deposited data

How the results depend on the processing

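No sirtuin gene was called under any setting tried, left-out libraries included. Every sirtuin estimate stayed under the log2 limit of 2 in size, so that limit fixed this outcome whatever the p-values were. Sirt2, Sirt6 and Sirt7 were higher in irradiated oocytes under all settings (Sirt6 from 0.27 to 0.82). On the log2(TPM + 1) scale Sirt1 and Sirt5 reversed to 0.046 and 0.11, with or without the filter on low values, and with a pseudocount of 0.1 to 0.052 and 0.12. Sirt5 also reversed with library size only (0.019) and with known transcripts only (0.13). Leaving out 1 library reversed Sirt3 (-0.14 to 0.61), Sirt4 (-0.098 to 0.24), Sirt5 (-0.33 to 0.042), and the transcripts NM_019812.3 (-0.68 to 0.12), NM_001122765.1 (-0.40 to 0.62) and XM_006530481.3 (-0.33 to 1.16). The 1 gene called among all genes became 0 with library size only, limma-voom, every TPM setting or known transcripts only, 3 without the filter, 4 with DESeq2, 10 with the exact test, 7 with a replicate block, and 16 to 84 without 1 library, the most without irradiated library 1, where 5 of 7 sirtuins and 5395 of 13011 genes tested had an unadjusted p under 0.05. Transcripts called rose from 0 to 248 with DESeq2 and 299 with the exact test, each including 1 sirtuin transcript, NM_001127351.1. The cause was not tested. The labels give the libraries only numbers: deviations of same-numbered libraries correlated at 0.0777, and the block called 0 sirtuins. With 2 libraries per group and a common dispersion of 0.0251 for gene totals and 0.473 for transcripts, isoform differences are the less precise.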
